A study of Mus musculus with 20 samples.

Results

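The comparison described here is that of 10-month-old tau transgenic mice with wild-type mice of the same age, in RNA from the frozen cerebral cortex. The transgenic group (TG10M, 5 libraries) carries Tg(Prnp-MAPT*P301S)PS19Vle, the PS19 line, in which human tau with the P301S change is expressed from the mouse prion promoter. The control group (WT10M, 5 libraries) is Wild Type, and both groups are on the (C57BL/6 x C3H)F1 background with no treatment named in the labels. The same genotypes at 3 months (TG03M and WT03M, 5 libraries each) enter the fit and show which differences were already present. The 2 groups at 10 months make up 10 of the 20 libraries of the study, compared by the sum of the FPKM of all transcripts with the same gene ID, and 13722 of the 21949 genes in the messenger RNA table were tested. Replicates carry numbers in the labels with no word on whether they are different animals, so p-values measure the spread between these samples, which may be technical.

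Tau is a microtubule-binding protein of neurons, and mutant human tau in this line forms aggregates in nerve cells as the mice age. Microglia, the resident macrophages of the brain, sense damaged neurons through receptors such as Trem2, whose signal passes through the adaptor Tyrobp, and respond by raising phagocytic, lysosomal, complement and antigen presentation genes. Astrocytes react with more of their filament protein Gfap and with changes in transporters and secreted proteins. In whole tissue, more cells of a type and more RNA per cell cannot be told apart.

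Values are FPKM, fragments mapped to a transcript relative to its length and to the depth of the library, summed over the transcripts of a gene. Differences are TG10M minus WT10M in log2(FPKM + 0.5), fitted with limma and given with their standard error (SE); they understate the change of genes with low FPKM. A gene was called, and is said to have risen or fallen, at a Benjamini-Hochberg adjusted p under 0.05 over all genes tested. Values per library are in the order of replicates 1 to 5, and ± stands before an SD (n = 5 libraries). Depth, estimated from the steps between low FPKM values, was 22.6 to 30.0 M fragments (M, 10 to the power of 6) per 10-month library, with medians of 25.4 in WT10M and 24.6 in TG10M. Cortical neuron markers were present in every library, with Slc17a7, the vesicular glutamate transporter of cortical excitatory neurons, at 257 to 316 FPKM in the 10-month libraries. Markers of T and B cells were at or near 0, the highest value in any of the 20 libraries being 0.0354 FPKM for Cd3e and 0.0918 FPKM for Cd8a of T cells and 0.249 FPKM for Cd79a of B cells.

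WT10M replicate 5 and TG10M replicates 1 and 5 stood apart from the 17 other libraries on the principal component with most variance (23.9%), scoring 26.2 to 30.9 against -12.1 to 2.52. Within those 17 the wild-type libraries of both ages scored -12.1 to -6.34 and the transgenic ones -1.90 to 2.52. The component thus also separated the genotypes there. Among the 10-month libraries the 3 that stand apart were low for Hsp90aa1, a cytosolic chaperone: WT10M had 602, 596, 532, 596 and 16.6 FPKM and TG10M 16.2, 654, 596, 657 and 13.9 FPKM. Low Hsp90aa1 was not particular to them, since TG03M had 16.2 to 560 FPKM with a median of 20.3 FPKM, and WT03M 547 to 687 FPKM. The labels name no batch. Differences are therefore also given for the 7 other libraries and for the 3 that stand apart (1 WT10M and 2 TG10M libraries, with no test), and from a second fit with a term for the 3 libraries.

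At 10 months 80 genes rose, 0.583% of those tested, and 7 fell, 0.051% of those tested. With the term for the 3 libraries 126 genes were called higher (0.918%) and 52 lower (0.379%), and all 87 of the first calls were among them. Without the 3 libraries 326 genes were called (176 higher, 150 lower), among them 73 of the 87. No called gene changed its sign in the 7 other libraries, and Lars2 was the 1 that did in the 3. Of the 80 rises 53 were under 1.5-fold on the log2(FPKM + 0.5) scale, 20 between 1.5-fold and 2-fold, and 7 at 2-fold or more. Most called differences were thus small. The median of the rises was 0.45, beside 0.00062 for all genes tested. Without any adjustment 1094 genes were higher and 839 lower at p under 0.05. The number of falls depended on WT10M replicate 5. With this library alone left out 1600 genes were called, 776 higher and 824 lower. With any other 1 of the 10-month libraries left out 28 to 66 were called, 0 to 2 of them lower.

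The gene of the transgene's promoter comes first. Prnp, the prion protein gene (ENSMUSG00000079037, chromosome 2, 131909928 to 131938429, plus strand, GRCm38), had 419.6, 412, 424, 427 and 528 FPKM in WT10M and 841, 736, 766, 779 and 803 FPKM in TG10M. All TG10M libraries lay above all WT10M libraries, and among the latter replicate 5 was the highest. The difference was 0.83 (SE 0.061, adjusted p = 2.83e-07), with 0.85 in the 7 other libraries and 0.64 in the 3 that stand apart. Which part of these reads came from the transgene, whose vector uses Prnp sequence, was not tested. Mapt, the mouse tau gene (ENSMUSG00000018411, chromosome 11, 104231390 to 104332090, plus strand), had 166, 139, 155, 159.8 and 133 FPKM in WT10M and 119, 138, 140.2, 135 and 144 FPKM in TG10M. The Mapt groups overlapped, and the difference of -0.15 (SE 0.074, adjusted p = 0.367) did not pass. Human MAPT was not analysed here.

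**Figure D1:**
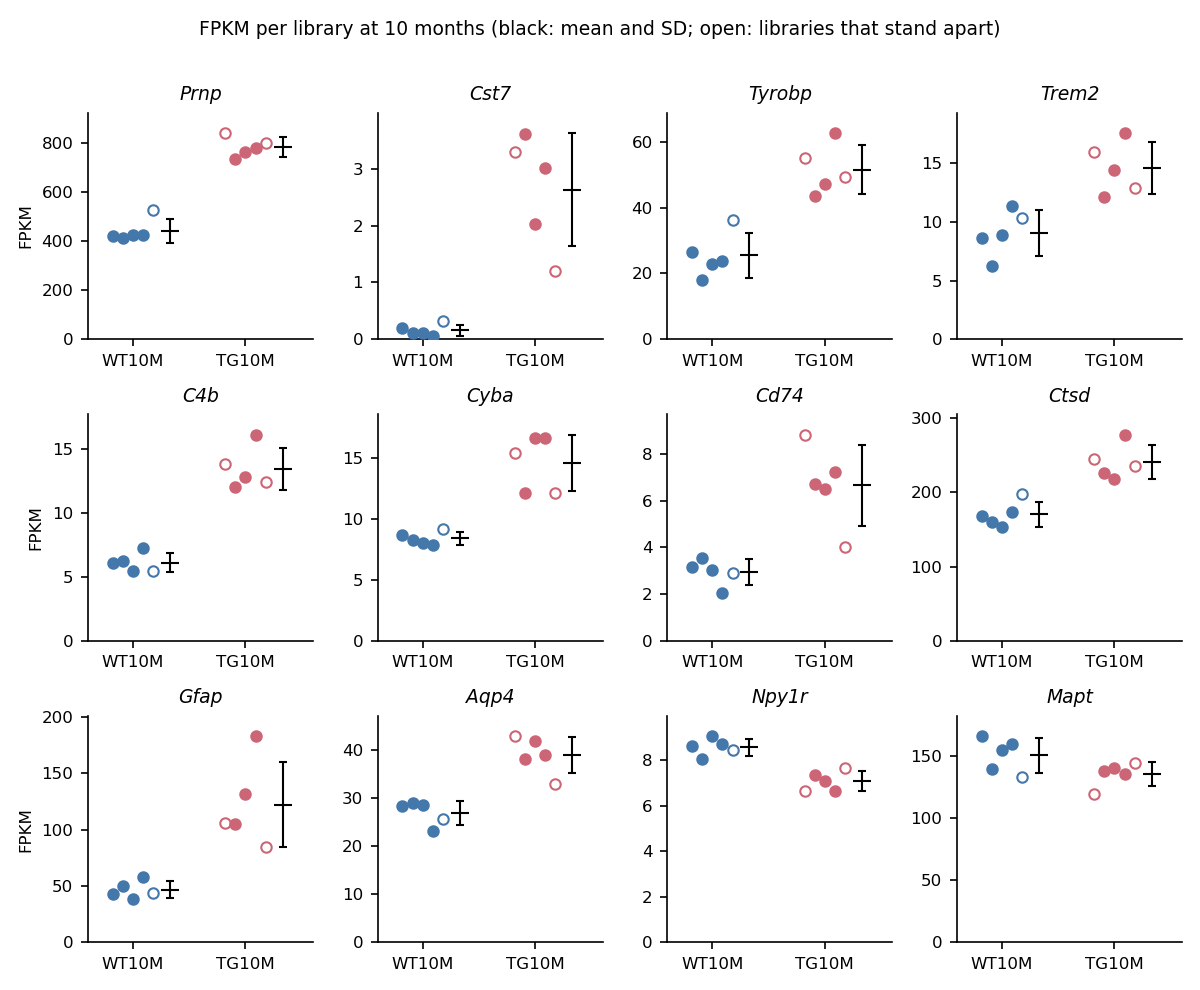
FPKM (y axis, from 0) of 12 genes in each 10-month library, WT10M left and TG10M right, with the mean and SD of the 5 libraries beside the points; open circles are WT10M replicate 5 and TG10M replicates 1 and 5, which stand apart on the principal component with most variance. Prnp, Cst7, Tyrobp, Trem2, C4b, Cyba, Cd74, Ctsd, Gfap and Aqp4 were higher in all 5 TG10M libraries than in any WT10M library, Npy1r was lower in all 5, and Mapt overlapped.

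Of the genes for receptors and signalling molecules of microglia, 4 rose in the transgenic cortex. Tyrobp, the adaptor that passes on signals of Trem2 and other receptors (ENSMUSG00000030579, chromosome 7, 30413760 to 30417585, plus strand), had 26.5, 17.9, 22.9, 23.8 and 36.3 FPKM in WT10M and 55.1, 43.5, 47.1, 62.6 and 49.2 FPKM in TG10M. The groups did not overlap, although WT10M replicate 5 was the highest wild-type library, and the difference was 1.03 (SE 0.14, adjusted p = 0.000742). In the 7 other libraries it was 1.14 and in the 3 0.51. Trem2, the lipid-sensing receptor of microglia (ENSMUSG00000023992, chromosome 17, 48346401 to 48354147, plus strand), had 8.62, 6.21, 8.86, 11.4 and 10.3 FPKM in WT10M and 15.9, 12.1, 14.4, 17.5 and 12.9 FPKM in TG10M, again without overlap, and rose by 0.67 (SE 0.13, adjusted p = 0.0202). The calls of Trem2, Cd84 and C1qa (below) were each lost when WT10M replicate 1 or 3 or TG10M replicate 1 or 4 was left out. Cd84, a receptor of the SLAM family, had 1.29, 1.33, 0.930, 1.34 and 1.34 FPKM in WT10M and 3.42, 1.86, 2.11, 3.14 and 2.53 FPKM in TG10M and rose by 0.82 (SE 0.16, adjusted p = 0.0233). Plcg2, the phospholipase C that acts downstream of Trem2, rose by 0.44 (SE 0.10, adjusted p = 0.0422). These were the 4 rises among the 23 tested of 24 listed receptor and signalling genes of microglia. In this list 22 of 23 differences were positive, with a median of 0.34, beside 50.2% positive over all genes tested. The growth factor receptor Csf1r at 0.28 (adjusted p = 0.0743) and the exchange factor Vav1 at 0.36 (adjusted p = 0.109) did not pass. Its median over the 7 other libraries came to 0.36, and over the 3 to 0.18.

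Genes of disease-associated microglia, the state described around protein deposits, included the largest log2 difference after that of Lars2. Cst7, cystatin F, an inhibitor of lysosomal cathepsins (ENSMUSG00000068129, chromosome 2, 150570415 to 150578944, plus strand), had 0.194, 0.113, 0.103, 0.0570 and 0.314 FPKM in WT10M and 3.30, 3.61, 2.03, 3.01 and 1.20 FPKM in TG10M. It was thus below 0.32 FPKM in every wild-type library and at least 1.20 FPKM in every transgenic one, and the lowest of the latter, replicate 5, is among the 3 that stand apart. The difference was 2.20 (SE 0.18), with 2.43 in the 7 other libraries and 1.64 in the 3. Cst7 entered the test through the TG10M libraries alone, its means in the 3 other groups being under the minimum of 0.5 FPKM, so its values are given as a description and its call (adjusted p = 1.12e-06) as no support. Lyz2, lysozyme of macrophages, had 7.65, 8.54, 5.70, 9.04 and 8.76 FPKM in WT10M and 17.5, 14.1, 15.7, 17.1 and 14.6 FPKM in TG10M and rose by 0.96 (SE 0.14, adjusted p = 0.00198). Cd68, a glycoprotein of the phagocyte lysosome, had 3.8, 3.42, 3.76, 3.44 and 3.78 FPKM in WT10M and 6.39, 5.67, 6.14, 8.74 and 6.45 FPKM in TG10M and rose by 0.78 (SE 0.13, adjusted p = 0.00410). TG10M replicate 4 was the highest for Cd68. Ctsz, a lysosomal carboxypeptidase, had 32.9, 30.0, 26.9, 35.8 and 29.9 FPKM in WT10M and 46.8, 43.3, 44.4, 54.1 and 41.5 FPKM in TG10M and rose by 0.56 (SE 0.076, adjusted p = 0.000783). Axl, a receptor kinase for the clearance of dying cells, rose by 0.39 (SE 0.057, adjusted p = 0.00167) and Ctsd, cathepsin D, by 0.49 (SE 0.072, adjusted p = 0.00162).

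Apoe, the main lipoprotein of the brain, made by astrocytes and by responding microglia, was among the most abundant of the called genes. It had 1913, 2027, 1915, 1929.7 and 2034 FPKM in WT10M and 2273, 2339, 2449, 2222 and 2593 FPKM in TG10M, without overlap. The rise of 0.27 (SE 0.059, adjusted p = 0.0390) was small, and its call was lost when any library other than WT10M replicate 5 was left out. With Apoe, and counting Cst7, 7 of the 23 tested of 26 listed genes of disease-associated microglia rose and none fell. Positive differences were seen in 19 of 23, with a median of 0.33 (0.36 in the 7 other libraries, 0.34 in the 3). Itgax, an integrin of activated microglia, did not reach the mean FPKM of 0.5 needed for a test. It had 0.0461 to 0.171 FPKM in WT10M and 0.423 to 1.56 FPKM in TG10M, so its groups did not overlap. Clec7a was not analysed here.

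Genes that mark resting microglia held 1 call among 18, of which 14 were positive, with a median of 0.26. Fcrls, a receptor-like gene of microglia, had 7.11, 9.41, 7.56, 9.90 and 14.6 FPKM in WT10M and 18.2, 12.4, 16.3, 18.1 and 21.4 FPKM in TG10M, and its difference of 0.82 (SE 0.20, adjusted p = 0.0613) did not pass. It did with the term for the 3 libraries, at 0.72 (adjusted p = 0.0465). The chemokine receptor Cx3cr1 was at 0.21 (adjusted p = 0.107), the membrane protein Tmem119 at 0.28 (adjusted p = 0.167) and the purine receptor P2ry12 at 0.30 (adjusted p = 0.319). Aif1, which encodes the microglia marker Iba1, was at 0.36 (SE 0.15, adjusted p = 0.301). None of these 4 passed, and P2ry12 had its highest wild-type value, 39.0 FPKM, in replicate 5.

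Complement proteins tag material for uptake by microglia. C4b, complement component 4 (ENSMUSG00000073418, chromosome 17, 34728380 to 34743882, minus strand), had 6.11, 6.21, 5.49, 7.29 and 5.44 FPKM in WT10M and 13.9, 12.1, 12.8, 16.1 and 12.5 FPKM in TG10M. Every transgenic library lay above every wild-type library, and the rise of 1.08 (SE 0.092, adjusted p = 1.17e-06) compared with 1.06 in the 7 other libraries and 1.20 in the 3. C4b has a near-identical neighbour, C4a, with which reads could be shared. Clu, clusterin, a complement inhibitor and lipoprotein of astrocytes, had 303, 322, 298, 309 and 314 FPKM in WT10M and 380.3, 405, 407, 443 and 360.0 FPKM in TG10M and rose by 0.36 (SE 0.061, adjusted p = 0.00580). C1qa, a subunit of the C1q complex that starts the classical pathway, had 49.6, 47.3, 44.0, 61.2 and 81.8 FPKM in WT10M and 108, 76.7, 82.4, 105 and 95.2 FPKM in TG10M. WT10M replicate 5 lay above TG10M replicate 2, and the rise was 0.74 (SE 0.14, adjusted p = 0.0171). The subunit C1qc, at 0.68 (adjusted p = 0.110), and the receptor C3ar1, at 0.37 (adjusted p = 0.105), did not pass. Of the 14 tested of 18 listed complement genes 3 rose, 11 were positive and the median was 0.37. C3, the central component, had too little RNA for a test, at 0.0758 to 0.291 FPKM in WT10M and 0.130 to 0.249 FPKM in TG10M. All 5 tested Fc receptor genes were positive and none was called, with a median of 0.44 (0.41 in the 7 other libraries, 0.17 in the 3). Fcer1g, the common signalling subunit, had 5.15, 5.08, 4.47, 5.27 and 9.30 FPKM in WT10M and 9.90, 8.99, 8.83, 12 and 11.1 FPKM in TG10M (difference 0.78, adjusted p = 0.104). Fcgr2b, the inhibitory receptor, had 1.5, 2.03, 1.89, 1.23 and 2.65 FPKM in WT10M and 3.23, 2.53, 3.83, 2.55 and 2.01 FPKM in TG10M (difference 0.50, adjusted p = 0.142). The groups of Fcer1g overlapped through WT10M replicate 5 alone, and those of Fcgr2b without that library too.

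Genes of class II antigen presentation, which shows peptides to helper T cells, rose in 4 of the 8 members tested. Cd74, the invariant chain that guides class II molecules, had 3.17, 3.52, 3.04, 2.05 and 2.89 FPKM in WT10M and 8.81, 6.72, 6.50, 7.23 and 4.03 FPKM in TG10M. H2-Ab1, a class II beta chain (ENSMUSG00000073421, chromosome 17, 34257689 to 34269419, plus strand), had 1.33, 1.59, 1.33, 0.866 and 1.6 FPKM in WT10M and 5.05, 2.98, 2.32, 2.60 and 2.94 FPKM in TG10M, with its highest value in TG10M replicate 1. H2-Eb1, another class II beta chain, had 1.6, 1.55, 1.25, 1.11 and 1.65 FPKM in WT10M and 3.73, 2.97, 2.68, 2.32 and 2.43 FPKM in TG10M. All 3 genes separated the groups at these low levels. They rose by 1.04 (SE 0.18, adjusted p = 0.00782), 0.97 (SE 0.16, adjusted p = 0.00410) and 0.78 (SE 0.14, adjusted p = 0.00803). Ctss, cathepsin S, which trims the invariant chain, had 62.0 ± 10.2 FPKM in WT10M and 95.8 ± 16.3 FPKM in TG10M, a rise of 0.62 (SE 0.12, adjusted p = 0.0235) with overlapping groups. The list holds 11 genes, of which 8 were tested and all 8 were positive, with a median of 0.63 (0.57 in the 7 other libraries and 0.48 in the 3). Cd86, a costimulatory ligand of antigen-presenting cells, had 0.752, 0.841, 0.602, 0.734 and 0.905 FPKM in WT10M and 1.89, 1.46, 1.27, 1.92 and 1.70 FPKM in TG10M and rose by 0.76 (SE 0.10, adjusted p = 0.000783). Lag3, a receptor that binds class II molecules, had 0.925, 0.961, 1.04, 0.986 and 1.11 FPKM in WT10M and 2.18, 1.49, 2.46, 2.91 and 1.48 FPKM in TG10M and rose by 0.76 (SE 0.14, adjusted p = 0.0175).

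Class I genes present peptides made by the proteasome. H2-D1, a class I heavy chain, had 23.5, 19.5, 19.1, 19.0 and 25.8 FPKM in WT10M and 45.1, 31.1, 31.2, 32.4 and 33.2 FPKM in TG10M and rose by 0.68 (SE 0.11, adjusted p = 0.00410). TG10M replicate 1 was again the highest. Psmb8, an inducible proteasome subunit, had 3.59, 2.60, 2.79, 3.07 and 3.44 FPKM in WT10M and 8.01, 4.42, 6.02, 4.03 and 4.96 FPKM in TG10M and rose by 0.71 (SE 0.16, adjusted p = 0.0422). Of the 16 tested of 19 listed class I genes these 2 rose and 14 were positive, with a median of 0.25. B2m, the light chain, was at 0.64 (adjusted p = 0.0835) and H2-K1 at 0.50 (adjusted p = 0.0940). The H2 genes are near-identical copies in part, so reads could be split between them and single values are uncertain. The same holds for Lyz2 and Serpina3n, which have close paralogs. Of the 27 tested of 32 listed genes of the type I interferon response none was called and 26 were positive, with a median of 0.46 (0.32 in the 7 other libraries, 0.54 in the 3). Ifitm3, an antiviral membrane protein, had 8.84, 10.6, 5.87, 7.23 and 10.2 FPKM in WT10M and 18.7, 12.5, 11.4, 14.8 and 14.9 FPKM in TG10M (difference 0.74, adjusted p = 0.0656). Usp18, a negative regulator of the interferon receptor, had 0.464, 0.690, 0.418, 0.616 and 0.470 FPKM in WT10M and 1.75, 1.02, 0.791, 0.873 and 1.35 FPKM in TG10M (difference 0.66, adjusted p = 0.0743). Both separated the groups without passing. Outside these lists Eif2ak2, the interferon-inducible kinase PKR, rose by 0.33 (SE 0.070, adjusted p = 0.0390).

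Genes of innate sensing and of the oxidative burst were positive throughout their lists. Unc93b1, which carries Toll-like receptors to endosomes, had 4.19, 4.03, 3.83, 4.56 and 4.66 FPKM in WT10M and 6.21, 5.54, 5.80, 5.85 and 6.29 FPKM in TG10M and rose by 0.44 (SE 0.066, adjusted p = 0.00198). Ly86, a partner of the receptor-like protein Cd180, had 8.08, 6.00, 6.24, 9.31 and 12.7 FPKM in WT10M and 21.4, 12.9, 13.9, 15.7 and 16.7 FPKM in TG10M and rose by 0.92 (SE 0.17, adjusted p = 0.0171). TG10M replicate 2, the lowest transgenic library for Ly86, lay just above WT10M replicate 5. Cd14, the lipopolysaccharide co-receptor, had 1.26, 0.747, 0.878, 1.16 and 1.16 FPKM in WT10M and 2.37, 1.91, 1.47, 2.17 and 1.66 FPKM in TG10M and rose by 0.65 (SE 0.12, adjusted p = 0.0149). These were the 3 rises among the 11 tested of 16 listed Toll-like receptor genes and co-receptors, all of which were positive (median 0.44). Tlr2 was at 0.46 (adjusted p = 0.111) and Tlr7 at 0.45 (adjusted p = 0.129). Cyba, p22phox, the membrane subunit of the phagocyte NADPH oxidase (ENSMUSG00000006519, chromosome 8, 122424776 to 122432930, minus strand), had 8.68, 8.26, 8.01, 7.88 and 9.15 FPKM in WT10M and 15.4, 12.1, 16.6, 16.6 and 12.1 FPKM in TG10M. It rose by 0.75 (SE 0.10, adjusted p = 0.000689) and was the 1 call among 6 tested subunits of the oxidase, all positive. The cytosolic subunit Ncf1 had 2.47, 2.58, 2.66, 2.96 and 2.69 FPKM in WT10M and 3.38, 3.51, 3.15, 4.47 and 3.55 FPKM in TG10M (difference 0.37, adjusted p = 0.0758), and Cybb, the catalytic partner of Cyba, was at 0.14 (SE 0.36, adjusted p = 0.884). Of 8 tested cytokine and chemokine genes none was called. Il33, an alarmin, had 27.8, 16.9, 17.5, 16.9 and 28.3 FPKM in WT10M and 30.0, 29.6, 23.1, 27.2 and 34.3 FPKM in TG10M (difference 0.45, adjusted p = 0.167). The chemokine Ccl12 had 1.82, 0.899, 0.828, 1.08 and 2.17 FPKM in WT10M and 5.41, 2.82, 0.849, 1.64 and 3.65 FPKM in TG10M (difference 0.74, adjusted p = 0.438). Further rises among genes of myeloid cells were the transcription factor Cebpa (0.47, adjusted p = 0.0214), the platelet-activating factor receptor Ptafr (0.46, adjusted p = 0.0256) and the kinase substrate Plek (0.38, adjusted p = 0.0422).

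Macrophages of the brain's borders carry many of the same genes. Their marker Mrc1 had 1.41, 2.09, 1.79, 1.87 and 1.61 FPKM in WT10M and 2.35, 2.22, 2.35, 2 and 2.68 FPKM in TG10M (difference 0.33, adjusted p = 0.147), and Pf4 had 1.53, 2.40, 2.43, 0.904 and 2.73 FPKM in WT10M and 3.82, 2.51, 2.50, 3.53 and 4.27 FPKM in TG10M (difference 0.65, adjusted p = 0.175). Of the 26 listed genes of border macrophages and blood leukocytes 10 were tested, none was called and 7 were positive, with a median of 0.091. Both pairs of groups overlapped. The summed level of the list was 90.2 to 105.5 FPKM in WT10M and 91.5 to 110.1 FPKM in TG10M. The border markers Cd163 and Lyve1 had medians of 0.478 and 0.283 FPKM in WT10M and 0.547 and 0.443 FPKM in TG10M. With Mrc1 and Pf4 they were a small part of the sum, which thus says little of border macrophages. The part of these cells in the rises was not tested.

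Further lysosomal enzymes rose beside the cathepsins named above. Ctsh, cathepsin H, had 5.79, 8.37, 6.30, 6.31 and 7.45 FPKM in WT10M and 9.53, 9.65, 8.87, 9.75 and 9.34 FPKM in TG10M and rose by 0.45 (SE 0.094, adjusted p = 0.0375). The groups of Ctsh did not overlap. Ctsc, cathepsin C, had 2.33, 2.74, 2.13, 3.99 and 3.67 FPKM in WT10M and 5.24, 3.91, 5.2, 4.81 and 4.64 FPKM in TG10M, which overlapped, and rose by 0.63 (SE 0.14, adjusted p = 0.0390). The mannosidase Man2b1 rose by 0.44 (adjusted p = 0.0392). They were among the 4 rises of 30 listed cathepsins and other lysosome genes, of which 29 were positive, with a median of 0.15 (0.15 in the 7 other libraries and 0.071 in the 3). With the term for the 3 libraries 7 were called, among them progranulin, Grn, at 0.32 (adjusted p = 0.00631), and the lysosome membrane protein Lamp1 at 0.14 (adjusted p = 0.0216). Gm2a, the activator protein for ganglioside breakdown, rose by 0.25 (adjusted p = 0.0422).

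The promoters of the called genes were searched for motifs of factors known in these pathways, over 250 bases before to 50 bases after each start in RefSeq (GRCm38.p6), on both strands. Of the genes tested 10338 had a promoter there, among them 54 of the 80 rises and 7 of the 7 falls. PU.1 is the lineage factor of microglia, TFEB and TFE3 drive lysosome genes, and the Y box lies in promoters of class II and class I genes. The 4 stretches below are examples, chosen after the matches were seen, of where a searched motif lies in a lysosomal or antigen presentation gene that rose, and each covers 150 bases before to 10 bases after the start. Capitals mark a match of TCACGTGA (TFEB and TFE3) in Ctsd (chr7:142387818-142387977, minus strand), of GAAANNGAA (interferon-stimulated response element) and of GAGGAAGT (PU.1, on the other strand) in Ctss (chr3:95526636-95526795, plus strand), and of CTGATTGG (Y box) in H2-D1 (chr17:35262944-35263103, plus strand, motif on the other strand) and H2-Eb1 (chr17:34305717-34305876, plus strand).
Ctsd: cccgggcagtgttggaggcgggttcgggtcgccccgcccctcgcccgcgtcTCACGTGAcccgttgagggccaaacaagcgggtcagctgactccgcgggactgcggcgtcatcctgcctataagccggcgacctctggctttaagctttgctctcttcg
Ctss: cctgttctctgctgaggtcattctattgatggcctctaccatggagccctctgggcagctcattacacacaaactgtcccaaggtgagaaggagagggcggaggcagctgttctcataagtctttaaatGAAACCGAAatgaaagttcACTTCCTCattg
H2-D1: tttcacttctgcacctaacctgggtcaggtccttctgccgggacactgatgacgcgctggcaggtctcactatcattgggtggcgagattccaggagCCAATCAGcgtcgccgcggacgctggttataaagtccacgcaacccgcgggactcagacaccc
H2-Eb1: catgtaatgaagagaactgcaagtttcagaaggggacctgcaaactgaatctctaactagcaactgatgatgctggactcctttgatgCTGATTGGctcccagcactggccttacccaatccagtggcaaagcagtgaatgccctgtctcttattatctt
Across all promoters searched, GAGGAAGT was in 3.35% and in 3 of the 54 rises (Ctsc, Ctss and Elovl1). GAAANNGAA was in 8.36% of all promoters and in 8 of the 54 (Apoe, Cd84, Ctss, Eif2ak2, Ly86, Mlc1, S100a16 and Vtn). TCACGTGA was in 2.10% of all promoters and in 1 of the 54, that of Ctsd. CACGTG (E-box), which the former contains, was in 11.5% of all promoters and in 4 of the 54, and CTGATTGG in 6.59% of all promoters and in 4 of the 54. Of the 7 falls, Clip4 held GAAANNGAA and Tmcc2 held CTGATTGG. A match is a description of the sequence and was not tied to binding here.

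Astrocyte genes rose as well, first the filament gene by which reactive astrocytes are usually recognised. Gfap (ENSMUSG00000020932, chromosome 11, 102887336 to 102900912, minus strand) had 42.7, 49.8, 38.2, 57.8 and 44.2 FPKM in WT10M and 106, 105, 131, 182 and 84.8 FPKM in TG10M. The groups were far apart, and within TG10M the values ranged from 84.8 FPKM in replicate 5 to 182 FPKM in replicate 4. The difference was 1.34 (SE 0.16, adjusted p = 0.000134), with 1.54 in the 7 other libraries and 1.09 in the 3. Serpina3n, a protease inhibitor induced in reactive astrocytes, had 4.21, 5.52, 4.20, 5.55 and 5.08 FPKM in WT10M and 8.08, 6.53, 9.42, 11.2 and 6.74 FPKM in TG10M and rose by 0.70 (SE 0.14, adjusted p = 0.0230). They were the 2 rises among the 22 tested of 27 listed reactive astrocyte genes, of which 19 were positive, with a median of 0.31. The filament gene Vim was at 0.45 (SE 0.12, adjusted p = 0.104) and was higher in every TG10M library than in any WT10M library. With the term for the 3 libraries it passed, at 0.48 (adjusted p = 0.0463). Osmr, the oncostatin M receptor, was at 0.58 (adjusted p = 0.111).

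Among genes of astrocyte transport and metabolism, Aqp4, the water channel of astrocyte endfeet (ENSMUSG00000024411, chromosome 18, 15389496 to 15410982, minus strand), had 28.2, 28.9, 28.5, 23.1 and 25.6 FPKM in WT10M and 42.7, 38.1, 41.7, 38.8 and 32.9 FPKM in TG10M. It rose by 0.52 (SE 0.076, adjusted p = 0.00162), with 0.54 in the 7 other libraries and 0.54 in the 3. Mlc1, a membrane protein of the endfeet, had 57.6, 52.6, 54.8, 55.4 and 69.1 FPKM in WT10M and 74.4, 70.7, 65.9, 70.0 and 75.5 FPKM in TG10M and rose by 0.30 (SE 0.066, adjusted p = 0.0390). Its groups overlapped in WT10M replicate 5 and TG10M replicate 3. These were the 2 rises among 20 listed genes, of which 17 were positive, with a median of 0.14. With the term for the 3 libraries 4 were called, among them Aldh1l1 (0.23, adjusted p = 0.0181) and the glutamate transporter Slc1a3 (0.20, adjusted p = 0.0180). The main glutamate transporter Slc1a2 was at 0.20 (SE 0.086, adjusted p = 0.302). Outside the lists 4 transporter genes rose, the urea transporter Slc14a1 (0.65, adjusted p = 0.00733), the dicarboxylate transporter Slc13a3 (0.57, adjusted p = 0.00410), the cystine and glutamate exchanger Slc7a11 (0.44, adjusted p = 0.00667) and the glutamine transporter Slc38a3 (0.36, adjusted p = 0.00901). All 4 separated the groups. The secreted protein Chil1 (0.41, adjusted p = 0.0326), the endothelin receptor Ednrb (0.41, adjusted p = 0.0432), the sphingosine phosphate receptor S1pr1 (0.27, adjusted p = 0.0365) and the synapse-forming protein Sparcl1 (0.19, adjusted p = 0.0462) also rose.

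Defence against oxidation, iron and lipid handling held further calls. Trf, the iron carrier transferrin, had 125, 127, 109.6, 145 and 122 FPKM in WT10M and 178, 178, 159, 176 and 197 FPKM in TG10M and rose by 0.50 (SE 0.083, adjusted p = 0.00580). Prdx6, a peroxiredoxin, had 82.3, 84.0, 86.2, 82.9 and 97.6 FPKM in WT10M and 129, 103, 105, 113 and 116 FPKM in TG10M and rose by 0.38 (SE 0.066, adjusted p = 0.00706). Both separated the groups, with Prdx6 highest in replicate 5 of WT10M. Pltp, the phospholipid transfer protein, had 24.9, 24.6, 21.6, 18.3 and 20.4 FPKM in WT10M and 30.7, 34.2, 26.6, 25.8 and 33.1 FPKM in TG10M and rose by 0.45 (SE 0.10, adjusted p = 0.0390). Pparg, a nuclear receptor that regulates lipid genes, had 5.63, 5.03, 4.79, 6.39 and 5.65 FPKM in WT10M and 3.15, 3.05, 3.25, 4.37 and 3.73 FPKM in TG10M and fell, with a difference of -0.59 (SE 0.13, adjusted p = 0.0422). Of 18 lipoprotein and lipid transport genes Pltp rose and Pparg fell, and the median was 0.053. Other rises were the fatty acid elongase Elovl1 (0.43, adjusted p = 0.0365), the acyl-CoA dehydrogenase Acad11 (0.29, adjusted p = 0.0301), the thioredoxin-binding protein Txnip (0.52, adjusted p = 0.0390) and Gch1, the first enzyme of tetrahydrobiopterin synthesis (0.45, adjusted p = 0.0390).

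Among vascular genes 1 pericyte gene was called. Vtn, vitronectin, made by pericytes, had 34.4, 38.6, 28.9, 31.3 and 42.5 FPKM in WT10M and 56.1, 48.1, 45.2, 45.0 and 70.5 FPKM in TG10M and rose by 0.58 (SE 0.11, adjusted p = 0.0237). Abcc9, a channel subunit of pericytes, had 2.08, 1.88, 1.59, 1.77 and 1.64 FPKM in WT10M and 2.12, 2.37, 2.18, 2.38 and 2.35 FPKM in TG10M, at 0.28 (adjusted p = 0.144). Vtn was the 1 rise among the 10 tested of 11 listed mural cell genes (9 positive, median 0.25). All 16 endothelial genes were positive and none was called, with a median of 0.30 (0.26 over the 7 other libraries, 0.42 over the 3). Emcn had 3.99, 3.52, 2.34, 2.42 and 4.07 FPKM in WT10M and 5.44, 4, 4.26, 4.27 and 5.63 FPKM in TG10M, at 0.49 (adjusted p = 0.111). Pecam1 had 7.03, 7.01, 6.01, 5.6 and 7.55 FPKM in WT10M and 8.60, 8.04, 7.57, 8.53 and 10.7 FPKM in TG10M, at 0.36 (adjusted p = 0.111). Pecam1 separated the groups and Emcn did not. Outside the lists Rhoj, a small GTPase of endothelium (0.49, adjusted p = 0.0388), the matrix protein Fmod (0.68, adjusted p = 0.0390) and the integrin subunits Itga6 (0.30, adjusted p = 0.0462) and Itgb5 (0.39, adjusted p = 0.0390) rose. Lists of oligodendrocyte genes held no call. Myelin genes were positive in 13 of 14 with none called (median 0.19). Mbp, myelin basic protein, had 867, 732, 699, 762 and 735 FPKM in WT10M and 819, 872, 917, 943 and 882 FPKM in TG10M (difference 0.23, SE 0.070, adjusted p = 0.155). Ugt8a, which makes the galactolipids of myelin, had 21.2, 18.3, 18.1, 19.0 and 19.3 FPKM in WT10M and 23.2, 20.7, 23, 23.3 and 21.3 FPKM in TG10M (difference 0.21, adjusted p = 0.158). Genes of oligodendrocyte precursors were positive in 11 of 12 (median 0.15). Among these the calcium channel Itpr2 had 3.11, 3.74, 3.28, 3.52 and 3.00 FPKM in WT10M and 3.64, 3.84, 3.88, 4.19 and 4.12 FPKM in TG10M (difference 0.21, adjusted p = 0.136), and the proteoglycan Cspg4 2.48, 3.04, 2.74, 2.74 and 2.76 FPKM in WT10M and 3.39, 3.20, 2.81, 2.96 and 3.21 FPKM in TG10M (difference 0.15, adjusted p = 0.320).

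**Figure D2:**
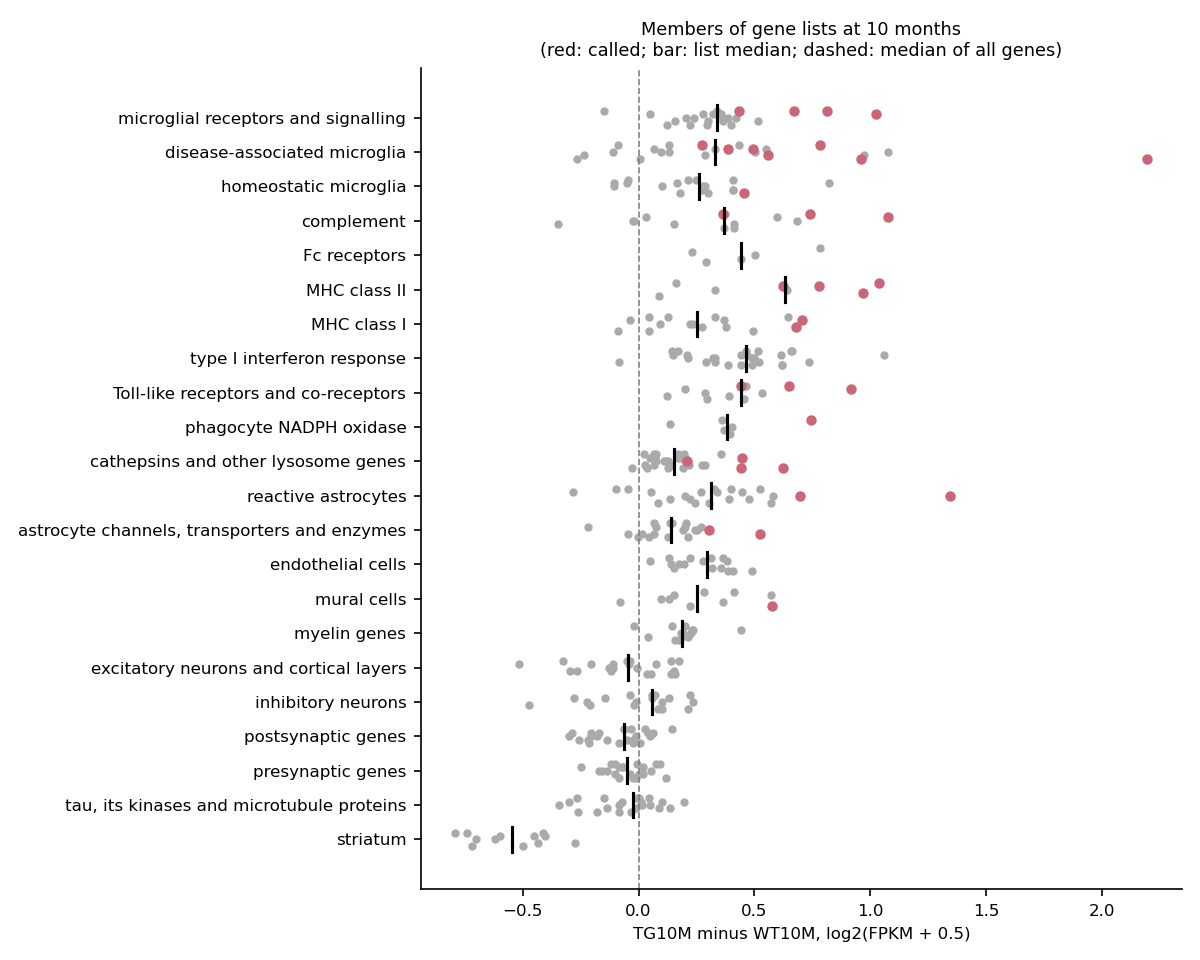
Difference TG10M minus WT10M in log2(FPKM + 0.5) (x axis) of every tested member of 22 gene lists (y axis); red points were called, black bars are list medians and the dashed line is the median of all genes tested. Medians of the microglial, antigen presentation, interferon, astrocyte and vascular lists lie right of the line, those of excitatory, postsynaptic and presynaptic genes lie within 0.1 of it, and all 12 striatal genes lie to its left.

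Medians of the neuronal lists lay within 0.1 of that of all genes, and no synaptic gene was called. Of 24 postsynaptic genes 18 were negative, with a median of -0.063, and of 22 presynaptic genes 15 were negative, with a median of -0.052. Dlg4, the scaffold PSD-95, had 141, 144, 148, 144 and 111 FPKM in WT10M and 107, 121, 132, 125 and 104 FPKM in TG10M (difference -0.22, SE 0.078, adjusted p = 0.210). Gria1, an AMPA receptor subunit, had 85.8, 98.5, 97.7, 106 and 81.5 FPKM in WT10M and 75.3, 80.9, 90.7, 83.5 and 75.9 FPKM in TG10M (difference -0.20, SE 0.073, adjusted p = 0.212). Both pairs of groups overlapped, that of Dlg4 through WT10M replicate 5 alone. The other WT10M libraries had at least 141 FPKM of Dlg4, and the highest TG10M library had 132 FPKM. Without WT10M replicate 5, 824 of all genes tested were called lower. Whether genes of these lists were among them is not reported here. The presynaptic adhesion gene Nrxn3 had 37.4, 39.0, 37.9, 39.6 and 33.7 FPKM in WT10M and 35.3, 32.5, 38.9, 35.0 and 33.2 FPKM in TG10M (difference -0.10, adjusted p = 0.366). In the 3 libraries that stand apart the 2 medians were -0.0090 and 0.025. Of 22 genes of excitatory neurons and cortical layers 14 were negative (median -0.046), of 18 of inhibitory neurons 8 (median 0.057), and of 22 of tau, its kinases and microtubule proteins 13 (median -0.022), with none called. Over the 7 other libraries the medians of the excitatory and tau lists were 0.0079 and 0.0032, so their direction turned. Bcl11b, of deep-layer neurons, had 26.7, 29.7, 32.8, 27.2 and 21.5 FPKM in WT10M and 22.1, 20.1, 25.3, 21.9 and 19.5 FPKM in TG10M (difference -0.33, adjusted p = 0.183), and Cux1, of upper layers, had 29.8, 32.6, 34.3, 31.8 and 37.5 FPKM in WT10M and 39.0, 36.6, 36.0, 36.6 and 36.7 FPKM in TG10M (difference 0.16, adjusted p = 0.190). The interneuron genes Calb1 and Vip had differences of -0.15 (adjusted p = 0.158) and 0.24 (adjusted p = 0.209). Calb1 had 36.1, 39.7, 40.4, 39.2 and 37.9 FPKM in WT10M and 36.4, 33.5, 35.0, 33.1 and 36.6 FPKM in TG10M, and Vip 34.5, 31.5, 32.7, 34.8 and 41.2 FPKM in WT10M and 44.0, 39.7, 35.4, 44.8 and 42.3 FPKM in TG10M. Mark2, a kinase of tau, had 25.3, 25.0, 25.7, 24.5 and 15.4 FPKM in WT10M and 14.8, 18.6, 21.3, 20.1 and 15.5 FPKM in TG10M (difference -0.34, adjusted p = 0.237), and the tubulin Tubb3 189, 186, 197, 195 and 255 FPKM in WT10M and 249, 224, 211, 217 and 265 FPKM in TG10M (difference 0.19, adjusted p = 0.253). The groups of Bcl11b and Mark2, lower in TG10M, likewise overlapped through WT10M replicate 5 alone. So did those of Cux1, Vip and Tubb3, which were higher in TG10M. Gria1, Nrxn3 and Calb1 overlapped without that library too.

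Stress genes held no call. None of 17 cytosolic chaperones was called (median 0.035). The small heat shock gene Cryab had 31.5, 29.9, 29.3, 29.2 and 27.0 FPKM in WT10M and 32.9, 34.8, 42.8, 43.5 and 33.5 FPKM in TG10M (difference 0.34, adjusted p = 0.336), and Hsp90ab1 503, 549, 523, 458 and 188 FPKM in WT10M and 234, 394, 439.8, 456 and 185 FPKM in TG10M (difference -0.37, adjusted p = 0.519). None of 14 tested genes of the unfolded protein response was called either (median 0.026). Atf4, its transcription factor, had 53.9, 53.4, 54.5, 48.9 and 65.7 FPKM in WT10M and 68.2, 65.7, 63.4, 65.3 and 70.1 FPKM in TG10M (difference 0.27, adjusted p = 0.109), and the co-chaperone Dnajb9 23.7, 22.9, 23.4, 22.2 and 15.6 FPKM in WT10M and 13.2, 19.0, 21, 20.8 and 15.2 FPKM in TG10M (difference -0.28, adjusted p = 0.339). The groups of Hsp90ab1 and Dnajb9, lower in TG10M, and of Atf4, higher in TG10M, overlapped through WT10M replicate 5 alone. Those of Cryab did not overlap. Genes that rose also included the elongation factor Eef1a2 (0.21, adjusted p = 0.0305), the differentiation gene Cend1 (0.22, adjusted p = 0.0422) and the GTPase Rac1 (0.23, adjusted p = 0.0390).

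All 12 striatal marker genes had a negative difference, and none passed. Pde10a, a phosphodiesterase of striatal neurons, had 50.3, 50.7, 52.3, 48.4 and 33.0 FPKM in WT10M and 30.9, 18.7, 43.9, 34.0 and 30.1 FPKM in TG10M (difference -0.60, SE 0.22, adjusted p = 0.225). Ppp1r1b, DARPP-32, had 112, 90.1, 101.3, 94.6 and 63.5 FPKM in WT10M and 57.8, 40.1, 78.0, 65.7 and 59.3 FPKM in TG10M (difference -0.62, adjusted p = 0.239). The dopamine receptor Drd1 had 23.5, 21.4, 22.3, 19.4 and 19.8 FPKM in WT10M and 17.4, 7.68, 21, 15.5 and 19.5 FPKM in TG10M, lowest in replicate 2. The groups of Pde10a and Ppp1r1b overlapped through WT10M replicate 5 alone, and those of Drd1 without that library too. The summed level of the list was 337 to 399 FPKM in WT10M and 134 to 328 FPKM in TG10M, so the sums did not overlap. The list's median was -0.55, with -0.71 over the 7 other libraries and -0.13 over the 3, and at 3 months all 12 were also negative (median -0.17). Choroid plexus RNA varied between libraries in both groups, with Ttr at 492, 8.23, 339, 25.7 and 24.9 FPKM in WT10M and 400.3, 312, 15.5, 15.2 and 11.3 FPKM in TG10M. The mitochondrially encoded genes had a median of 0.27, positive over the 7 other libraries (0.48) and negative over the 3 (-0.23), and none of 13 was called. At 3 months 6 of the 13 were called, beside 0.299% of all genes tested, and their median was 0.89. One of the 13, mt-Co1, had 6915, 6379, 6633.5, 6488 and 13045 FPKM in WT10M and 11182, 8627, 8899, 8648 and 11807 FPKM in TG10M. Its groups overlapped through WT10M replicate 5 alone, and it passed without the 3 libraries (0.40, adjusted p = 0.00626). The part of neighbouring tissue in the differences named above was not tested.

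Of the 7 falls 3 (Npy1r, Per3 and Pparg) belong to a list, each to a different one. Npy1r, a receptor of neuropeptide Y (ENSMUSG00000036437, chromosome 8, 66697192 to 66706792, plus strand), had 8.60, 8.03, 9.03, 8.73 and 8.45 FPKM in WT10M and 6.65, 7.35, 7.07, 6.66 and 7.66 FPKM in TG10M (difference -0.26, SE 0.053, adjusted p = 0.0305). Its ligand Npy had 151, 142, 139, 142 and 183 FPKM in WT10M and 216, 204, 181, 205 and 196 FPKM in TG10M, and its difference of 0.41 (adjusted p = 0.0512) passed with the term for the 3 libraries (0.37, adjusted p = 0.0463). Among 17 neuropeptide genes and receptors Npy1r was the 1 call. Per3, a period gene of the circadian clock, had 6.55, 7.02, 7.18, 7.93 and 7.39 FPKM in WT10M and 6.56, 5.26, 5.75, 5.6 and 6.01 FPKM in TG10M (difference -0.28, SE 0.063, adjusted p = 0.0422). Among 16 clock genes it was the 1 call, and Nr1d2, a repressor in the clock, had 48.9, 42.5, 41.8, 50.3 and 47.8 FPKM in WT10M and 43.7, 43.7, 35.4, 39.5 and 44.7 FPKM in TG10M (difference -0.16, adjusted p = 0.272). Cradd, an adaptor of caspase signalling, had 3.28, 3.58, 3.21, 3.45 and 3.05 FPKM in WT10M and 2.33, 1.86, 2.69, 1.72 and 2.41 FPKM in TG10M (difference -0.51, SE 0.11, adjusted p = 0.0454). Tmcc2, a membrane protein, had 63.4, 68.8, 69.3, 70.1 and 61.1 FPKM in WT10M and 53.4, 60.7, 60.6, 58.5 and 56.1 FPKM in TG10M (difference -0.20, SE 0.045, adjusted p = 0.0458). Both groups were separated for Cradd and Tmcc2, as for Npy1r and Pparg. Zcchc10 had 2.79, 2.27, 3.03, 2.86 and 2.12 FPKM in WT10M and 1.84, 1.32, 1.88, 1.56 and 1.91 FPKM in TG10M (difference -0.50, SE 0.11, adjusted p = 0.0392), and Clip4, a microtubule-binding protein, 13.9, 13.3, 14.0, 13.8 and 12 FPKM in WT10M and 10.4, 9.41, 10.6, 9.71 and 12.4 FPKM in TG10M (difference -0.34, SE 0.077, adjusted p = 0.0452). Zcchc10 separated the groups and Clip4 did not. Each of these calls was lost in at least 6 of the 10 fits that left out 1 library, and none was left without WT10M replicate 3 or without WT10M replicate 4.

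Lars2, mitochondrial leucyl-tRNA synthetase (ENSMUSG00000035202, chromosome 9, 123366927 to 123462666, plus strand), had the largest difference and the widest spread. It had 7.19, 6.61, 7.82, 14.3 and 91.2 FPKM in WT10M and 66.5, 654, 1839.8, 599.5 and 122 FPKM in TG10M. WT10M replicate 5 lay above TG10M replicate 1, and these are both among the 3 libraries that stand apart. The difference was 4.64 (SE 0.84, adjusted p = 0.0118), but -0.021 within the 3 libraries and 6.63 in the 7 others. Reads of ribosomal RNA can match a stretch of this gene, which makes its FPKM uncertain.

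In 66 of the 80 rises and 5 of the 7 falls all TG10M libraries lay beyond all WT10M libraries. Over all genes tested the groups were separated in this way with TG10M higher in 1.65% and with TG10M lower in 0.729%. WT10M replicate 5 was the highest wild-type library in 46 of the 80 rises, replicate 3 in 1. Set against WT10M replicates 1 to 4 alone, all TG10M libraries were higher in 78 of the 80, so 12 of the 14 overlaps came from replicate 5. Within TG10M, replicates 4 (29 genes) and 1 (24 genes) were most often the highest and replicate 2 (31 genes) most often the lowest. The median difference of the 80 rises from the WT10M mean was 0.37 to 0.51 in the TG10M libraries and -0.062 to 0.13 in the WT10M libraries. The called genes were chosen on these same libraries, which favours separated groups, so these values are a description and no support for the calls.

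**Figure D3:**
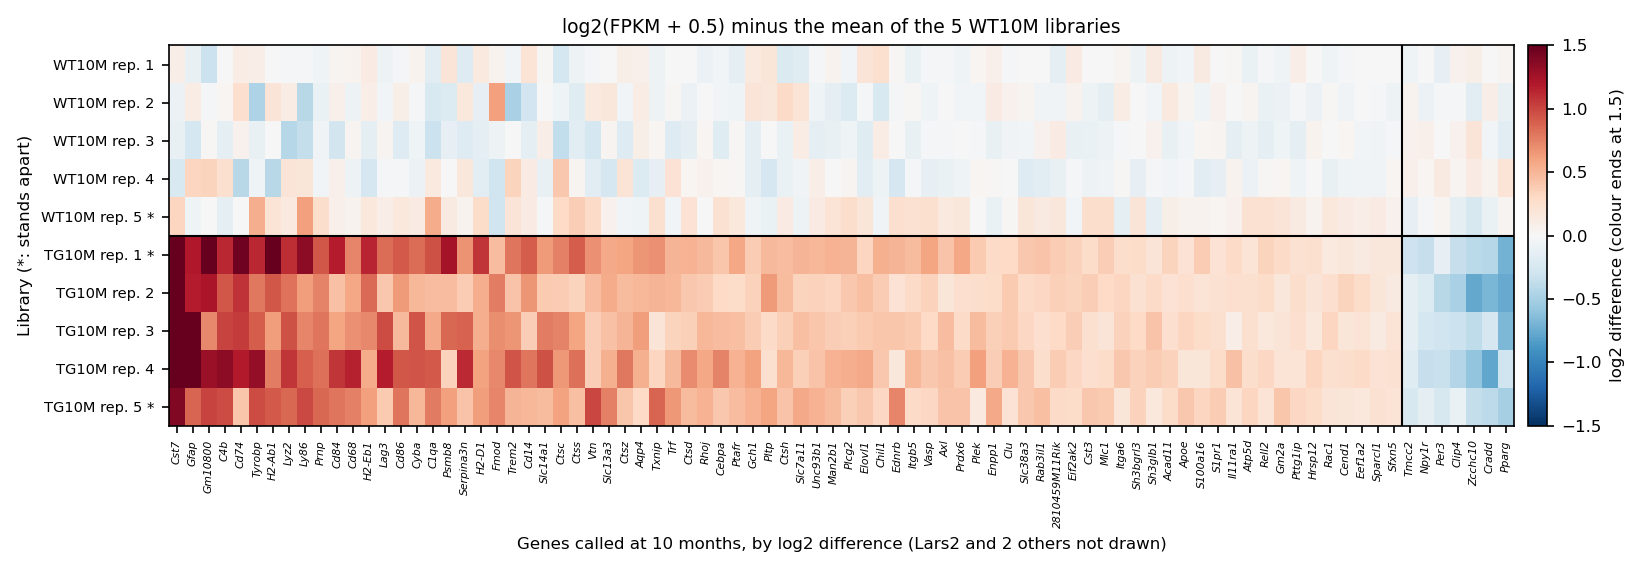
Colour gives log2(FPKM + 0.5) of each called gene (columns, by size of difference, Lars2 and 2 other genes not drawn) in each 10-month library (rows, an asterisk marking the 3 that stand apart) minus the mean of the 5 WT10M libraries; the vertical line parts rises from falls. All 5 TG10M libraries carry the rises, and among the WT10M libraries replicate 5 has the highest median over the 80 rises, 0.13. The genes were chosen on these same libraries.

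A core of 26 rises, counting Cst7 whose call is no support, stayed called whichever 1 of the 10 libraries was left out. By role these were the microglial and lysosomal genes Cst7, Tyrobp, Lyz2, Cd68, Ctsz, Ctsd, Axl, Cd86, Cyba and Unc93b1, the antigen presentation genes Cd74, H2-Ab1, H2-Eb1 and H2-D1, the complement, transport and astrocyte genes C4b, Clu, Gfap, Aqp4, Slc14a1, Slc13a3, Slc7a11, Slc38a3, Prdx6 and Trf, and Prnp and Lars2. Of these, 14 were called under every alternative in which they were tested, among them Prnp, C4b, Gfap, Cyba and Tyrobp. By contrast 47 rises and all 7 falls were each lost in 5 or more of those 10 fits, and the fit of the 10 libraries alone called 16 genes, all of them rises.

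Single transcripts of these genes were tested in the same way. Of 24698 transcripts tested 43 were called (0.174%), 37 higher and 6 lower, and 34 of the 43 belong to called genes. Of the 87 called genes 35 have a single transcript in the table. The transcript ENSMUST00000067444 of Gfap had 43.3 ± 6.66 FPKM in WT10M and 114.7 ± 36.8 FPKM in TG10M, a rise of 1.35 (SE 0.16, adjusted p = 0.000697). In genes that were not called 9 transcripts were, and 2 of these, named after their values were seen, were ENSMUST00000049519 of Irgm1, an interferon-inducible GTPase, higher by 0.61 (SE 0.08, adjusted p = 0.00216), from 2.69 ± 0.153 to 4.38 ± 0.427 FPKM, and ENSMUST00000078626 of Trank1, lower, at -0.30 (SE 0.06, adjusted p = 0.0327), from 45.5 ± 3.45 to 36.8 ± 0.872 FPKM. How reads were split between overlapping transcripts is not given in the sources used here, so these values are uncertain.

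Most of the rises, 75 of the 80, were smaller at 3 months than at 10 months. In the 3-month comparison 41 genes were called (0.299% of those tested), 8 of them among the 87: Prnp, Clu, Slc38a3, Eef1a2, Rac1, Sh3bgrl3, Gm2a and Atp5d. Of the 80 rises 66 had a positive difference at 3 months, beside 49.2% of all genes tested, with a median of 0.097 against 0.45 at 10 months. All 7 falls were negative at 3 months. The genes were chosen on the 10-month values, which favours larger differences at that age. The test of the difference between ages called 5 genes (0.0364%), all with a larger rise at 10 months. Cst7 had 0 to 0.170 FPKM in WT03M and 0 to 0.101 FPKM in TG03M, and subtracting its 3-month difference from its 10-month one gave 2.27 (SE 0.26, adjusted p = 0.000419), a value that depends on the pseudocount (1.64 with 1 and 3.62 with 0.1) and is a description for the same reason as above. C4b had 3.09 to 4.32 FPKM in WT03M and 3.39 to 4.02 FPKM in TG03M (1.03, SE 0.13, adjusted p = 0.00113). Gfap had 41.3 to 51.5 FPKM in WT03M and 34.9 to 49.5 FPKM in TG03M (1.40, SE 0.22, adjusted p = 0.0122). For these 3 genes the 3-month genotypes overlapped. Cyba (0.88, SE 0.14, adjusted p = 0.0122) and Ctsz (0.61, SE 0.11, adjusted p = 0.0465) were the others. C4b, Gfap and Cyba were called in all 20 fits that left out 1 of the libraries. Cst7 was too, though its call is no support. Ctsz was called in 3 of the 20, with a highest adjusted p of 0.141. Trem2, at -0.27 at 3 months, did not pass (0.94, SE 0.18, adjusted p = 0.109). For Prnp the difference between ages was 0.067 (SE 0.087, adjusted p = 0.980), and for Rac1 and Sh3bgrl3, whose differences were larger at 3 months, it was -0.17 (adjusted p = 0.962) and -0.29 (adjusted p = 0.83).

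**Figure D4:**
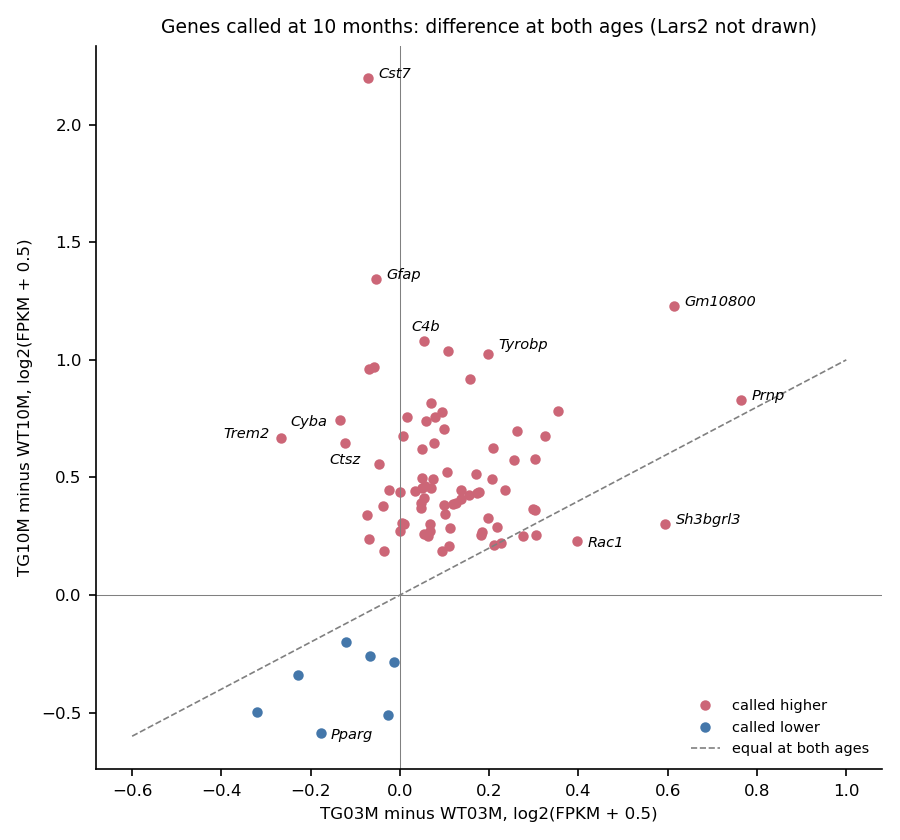
Each point is a gene called at 10 months (Lars2 not drawn), placed by its difference between genotypes at 3 months (x axis) and at 10 months (y axis), both in log2(FPKM + 0.5); the dashed line marks equal differences. Cst7, Gfap and C4b lie near 0 at 3 months and above 1 at 10 months, Prnp lies near the line, and Rac1 and Sh3bgrl3 lie below it.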

How the data were processed

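RNA of cerebral cortex was sequenced by the submitters, who kept samples with an RNA integrity number above 7, per the labels' protocols. The values are FPKM per messenger RNA transcript that the authors deposited, on GRCm38 (mm10); CASAVA, TopHat2, Cuffdiff and DESeq2 are named in the submitters' processing notes, with neither role nor version given in the sources used here. FPKM is the single unit analysed. FPKM were summed per gene ID (50660 transcripts, 21949 genes, of which 21676 are in GENCODE M21, the source of positions), and 27 symbols turned into dates by a spreadsheet were restored by ID. Genes whose mean over 20 libraries reached 0.5 FPKM entered the test on log2(FPKM + 0.5), unscaled otherwise, by limma 3.58.1 in R 4.3.3 (lmFit, contrasts, eBayes with a trend, two-sided), with a mean for each of the 4 groups (16 residual degrees of freedom). Transcripts were tested in the same way, and the fit was checked on simulated data. Between replicates, log2 values correlated with r of 0.978 to 0.994, and no library was a copy of another (at most 0.0271% identical values). In single-transcript genes longer than 4000 bases, 84.6 to 94.0% of low FPKM values lay within 0.1 of a whole multiple of the step that gave the depth, where an even spread would give 20%, though the step itself comes from the same values. The number of libraries and this depth limit precision.

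The comparison, its gene lists and the naming rule were chosen with earlier results of these data known. Any called gene other than predicted models may be named; values per library are given for Prnp, Mapt, the falls, the 15 largest rises with a mean of at least 1 FPKM, the 2 smallest-p members of lists described in detail, and a set of marker genes. Further members, up to 6 per list, are named in order of p, and a few genes that were tested and counted are not reported here by name. Same-numbered libraries were not treated as pairs.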

Additional observations from a re-analysis of the deposited data

Results flagged for a closer look

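In 190 groups of 5 libraries (95 genes in 2 groups) a library was looked for whose gap to its nearest neighbour took more than 0.71 of the range of its group. There were 13 such cases, and chance alone gives about 1 in 20 groups. In 6 of them the library was WT10M replicate 5, of the 3 that stand apart. It was the highest of its group for Prnp at 528.3 FPKM, Prdx6 at 97.56 FPKM, Lars2 at 91.23 FPKM, the actin regulator Vasp at 6.531 FPKM and the protease inhibitor Cst3 at 1268 FPKM, and the lowest for Hsp90aa1 at 16.60 FPKM. TG10M replicate 1 was the highest for H2-Ab1 at 5.055 FPKM and H2-D1 at 45.08 FPKM and the lowest for Fmod at 4.489 FPKM. TG10M replicate 2 was the lowest for Axl at 11.94 FPKM, replicate 4 the highest for Cd68 at 8.737 FPKM, and replicate 5 the lowest for Aif1 at 8.714 FPKM. In WT10M, replicate 3 was the lowest for Cd84 at 0.9298 FPKM.

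The test of the difference at 10 months minus that at 3 months, in log2(FPKM + 0.5), passed for Cst7 at 2.27, C4b at 1.03, Gfap at 1.40, Cyba at 0.88 and Ctsz at 0.61 (limma, adjusted p of 0.000419 to 0.0465). Cst7 entered this test through TG10M alone.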

How the results depend on the processing

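Of the 87 calls, 86 or 87 were also made with a pseudocount of 0.1 or 1 or a robust variance prior, 83 and 84 with a minimum mean FPKM of 0.1 or 1, 81 after median centring, 72 without a filter and 71 after quantile normalization; the interaction then held 3 to 5 calls, 3 with a minimum mean FPKM of 1, where Cst7 is no longer tested. Array weights gave 945 calls (538 higher, 407 lower), 10 for the interaction and 269 transcripts. Leaving out the 3 libraries that stand apart gave 326 calls (176 higher, 150 lower) and 160 transcripts, and a term for them 178 calls (126 higher, 52 lower) and 81 transcripts. The 10-month libraries alone gave 16 calls (16 higher, 0 lower) and 5 transcripts, and no interaction can be had from them. That fit has fewer residual degrees of freedom and estimates the spread without the 3-month libraries. Leaving out 1 library gave 28 to 1600 calls, 27 to 776 higher and 0 to 824 lower, 19 to 954 transcripts and 4 to 6 genes for the interaction. The highest counts of genes and transcripts were without WT10M replicate 5, with all 87 calls among them, and that of the interaction without WT10M replicate 4 or WT03M replicate 3. The other 9 of the 10-month libraries gave 28 to 66 calls, and of these the 66 without TG10M replicate 2 were within 1.5 times of 87. The cause of these shifts was not tested. Hsp90aa1, at -1.0, was reversed without the 3 libraries (0.13) and with the term for them (0.052).

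With the replicate number as a block, 72 genes (67 higher, 5 lower), 60 of them among the 87, 6 interaction genes and 25 transcripts were called. Same-numbered libraries correlated in their deviations with r of -0.17, -0.017, 0.27, 0.18 and 0.66, not over 0.1 for every number, so the numbers were not taken as pairs; 1 of the 5 TG10M libraries, replicate 5, correlated best with its own number. A term for Y-linked RNA was not run, since all 20 libraries hold it (Ddx3y at 22.8 to 28.7 FPKM). No scaling moved the median of all genes by more than 0.0068. Depth limits the genes under 0.5 FPKM, which were not tested.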

Other observations

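Values of called genes that belong to none of the groups above were as follows, each with limma and its adjusted p. The apoptosis and endocytosis protein Sh3glb1 rose by 0.29 (adjusted p = 0.0392), the calcium-binding protein S100a16 by 0.27 (adjusted p = 0.0452), the mitochondrial carrier Sfxn5 by 0.19 (adjusted p = 0.0214), the deaminase Hrsp12 by 0.24 (adjusted p = 0.0274) and the interleukin 11 receptor chain Il11ra1 by 0.26 (adjusted p = 0.0491). Of these 5, each was higher in all 5 TG10M libraries than in any WT10M library. The same was seen in 66 of the 80 rises, which were chosen on these libraries, and in 1.65% of all genes tested. The nucleotide pyrophosphatase Enpp1 rose by 0.37 (adjusted p = 0.0422), the ATP synthase subunit Atp5d by 0.26 (adjusted p = 0.0454), Rell2 by 0.26 (adjusted p = 0.0432), Rab3il1 by 0.34 (adjusted p = 0.0422) and Pttg1ip by 0.25 (adjusted p = 0.0392).

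The called genes lay on all 19 autosomes and not on the sex chromosomes or the mitochondrial genome. Chromosomes 2 (9 of 1089 tested), 7 (8 of 1018) and 17 (8 of 645) held the highest numbers, beside 87 of 13722 over all chromosomes. Chromosome 18, with fewer genes tested, held 5 of 396. C4b, H2-Ab1, H2-Eb1, H2-D1, Psmb8, Trem2 and Eif2ak2 were among the 8 calls of chromosome 17.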
